A study of Mus musculus with 18 samples.

Results

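The 35 genes described here mark neurons of the gut wall or belong to the machinery of the synaptic vesicle. They were taken by gene name from the deposited gene table, with no measured value in the rule, and all 35 were found among its 33977 genes. The study sequenced RNA of the colon in 18 libraries from mice of the outbred ICR stock. The mice were given Jinhua Hecha, a fermented green tea, or a compound Suanzoren capsule (labelled as jujube kernel) by gavage, or saline, each for 44 days, and the study's title concerns sleep, glutamatergic synapses and gut microbiota. The titles also carry a letter, X or C, whose meaning the labels do not give, so 6 groups of 3 libraries were compared: tea X (JHHCGX), capsule X (FFZRX), saline X (NCX), tea C (JHHCGC), capsule C (FFZRC) and saline C (NCC). All are whole colon tissue, and the labels give no dose, sex or age. The design text speaks of 3 mice a treatment against 6 libraries here, and nothing ties libraries to mice, so p-values reflect differences between libraries that may be partly technical.

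Enteric neurons sit in ganglia between and beneath the muscle layers of the gut, where they drive peristalsis, relaxation and secretion. Excitatory motor neurons release acetylcholine and tachykinins onto smooth muscle, and inhibitory motor neurons release nitric oxide and vasoactive intestinal peptide. In any neuron, transmitter is loaded into vesicles, held near the membrane by synapsins and the active zone, and released when SNARE proteins fuse vesicle and membrane on a calcium signal read by synaptotagmin.

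The promoters of 4 members are shown because they carry letters that textbooks tie to neuronal or activity-driven genes, or because the 2 genes form one transmitter cycle described further on. RefSeq's promoter table (build GRCm38.p6) held an entry for 27 of the 35 members, with none for Celf4, Ret, Nefl, Nefm, Gap43, Snap25, Vamp2 and Calb2. The 250 bases before the annotated start were searched on both strands for 4 motifs. These were TGACGTC as the core of the cAMP response element, TTCAGCACC as part of the RE1 element that the repressor of neuronal genes REST binds, TATAAA as the core promoter box of that name, and GGGCGG as the box bound by Sp1 factors. Capitals mark a match on either strand, and each sequence runs 5′ to 3′ on the gene's strand.
Syn1: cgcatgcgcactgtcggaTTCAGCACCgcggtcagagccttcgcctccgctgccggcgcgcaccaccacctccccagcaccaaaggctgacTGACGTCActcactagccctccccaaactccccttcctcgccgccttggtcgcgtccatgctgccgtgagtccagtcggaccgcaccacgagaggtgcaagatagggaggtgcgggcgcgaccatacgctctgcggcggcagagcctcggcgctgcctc
Vip: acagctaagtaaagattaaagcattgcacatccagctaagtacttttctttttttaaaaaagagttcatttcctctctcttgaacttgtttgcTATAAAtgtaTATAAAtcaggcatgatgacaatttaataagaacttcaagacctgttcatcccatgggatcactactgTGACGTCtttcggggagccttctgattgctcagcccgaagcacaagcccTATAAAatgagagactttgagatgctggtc
Slc18a3: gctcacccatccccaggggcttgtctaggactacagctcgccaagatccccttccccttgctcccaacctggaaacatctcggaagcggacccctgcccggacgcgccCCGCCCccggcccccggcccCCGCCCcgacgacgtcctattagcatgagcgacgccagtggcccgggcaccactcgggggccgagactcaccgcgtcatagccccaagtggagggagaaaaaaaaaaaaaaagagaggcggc
Slc5a7: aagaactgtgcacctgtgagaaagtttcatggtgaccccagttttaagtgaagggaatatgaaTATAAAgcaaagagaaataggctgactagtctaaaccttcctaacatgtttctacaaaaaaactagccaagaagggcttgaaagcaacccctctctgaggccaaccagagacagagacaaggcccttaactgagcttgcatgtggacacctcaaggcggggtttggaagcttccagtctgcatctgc
The Syn1 window (chrX:20920919-20921168, minus strand) held TTCAGCACC 232 to 224 bases before the RefSeq start and a palindrome in which 2 TGACGTC matches on opposite strands overlap. In the deposited gene table Syn1 starts at 20921004, inside this window, so part of the window lies within the gene as counted. The Vip window (chr10:5638968-5639217, plus strand) held TGACGTC 79 to 73 bases before the start and 3 TATAAA matches, the nearest at 30 to 25 bases. The Slc18a3 window (chr14:32464851-32465100, minus strand) lies inside the Chat gene and held 2 GGGCGG matches, and the Slc5a7 window (chr17:54299035-54299284, minus strand) held 1 TATAAA. Among all 32851 promoters of the table, 2.78% held TGACGTC, 0.301% TTCAGCACC, 12.4% TATAAA and 32.7% GGGCGG. The 27 members had 33 promoters in the table. Of these 33, 2 held TGACGTC (Syn1 and Vip), 1 TTCAGCACC (Syn1), 4 TATAAA and 18 GGGCGG. A match describes these letters only.

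Library totals were 59206980 to 76830278 counts, and the lowest count of any member in any library was 25, for Rbfox3. Levels below are TMM-scaled CPM, the count of a gene per fixed library size after scaling for composition. Both neurons and muscle were present: summed smooth muscle markers ran over 6928 to 18275 CPM in tea X, 4341 to 12206 in capsule X, 7499 to 36367 in saline X, 4634 to 14149 in tea C, 2959 to 16237 in capsule C and 6341 to 10350 in saline C. In 6 libraries that stand apart in mitochondrial transcripts (JHHCGX_256, NCX_134, NCX_147, JHHCGC_48, FFZRC_24 and NCC_17), mitochondrial genes took 12.2 to 24.9% of counts, against 5.48 to 11.1% in the other 12 libraries. The first 5 of them also had the most smooth muscle transcripts, while NCC_17, at 10350 CPM of smooth muscle markers, lay within the range of the other 12. Transcripts of cartilage, an unexpected tissue, were at 1.65 to 3.09 CPM in capsule C and 2.17 to 2.80 CPM in tea C, against 121 to 146.8 CPM in saline C. They were also at 114 CPM in FFZRX_139 and 126 CPM in NCX_124. Adipocyte markers followed the same split in set C, at 42.3 to 196 CPM in tea C and 18.6 to 66.5 CPM in capsule C, against 587 to 748 CPM in saline C. Lung markers were at 94.5 to 264 CPM in tea C and 1.73 to 2.76 CPM in capsule C, against 202 to 233 CPM in saline C. Skeletal muscle markers were at 30.8 to 80.6 CPM in tea C and 11.6 to 54.3 CPM in capsule C, against 235 to 626 CPM in saline C. In set X they were at 20.95 to 53.5 CPM in tea X and 109 to 305 CPM in capsule X, against 41.5 to 111 CPM in saline X. In set C the cartilage, adipocyte and skeletal muscle transcripts cannot be told apart from either treatment against saline. The same holds for lung transcripts and the capsule, while lung transcripts overlapped between tea C and saline C.

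Many of the neuronal genes were high or low in the same libraries. NCX_147 had the highest level of 29 members and NCX_134 that of the other 6, while FFZRC_12 had the lowest of 25 members. Relative to each gene's median over the 18 libraries, the median member stood 1.60 log2 units up in NCX_147, 1.51 in NCX_134 and 1.16 in JHHCGX_256. It stood at -1.66 in FFZRC_12, -1.27 in FFZRX_139 and -1.24 in FFZRC_5. Within groups, NCX_124 was below both other saline X libraries for 35 of 35 members, JHHCGX_256 was above both other tea X libraries for 35 of 35, FFZRC_24 was above both other capsule C libraries for 34 of 35, and FFZRX_268 above both other capsule X libraries for 33 of 35. The order was less uniform in the other 2 groups, where JHHCGC_48 was the highest tea C library for 21 of 35 members and NCC_17 the highest saline C library for 25 of 35.

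**Figure D1:**
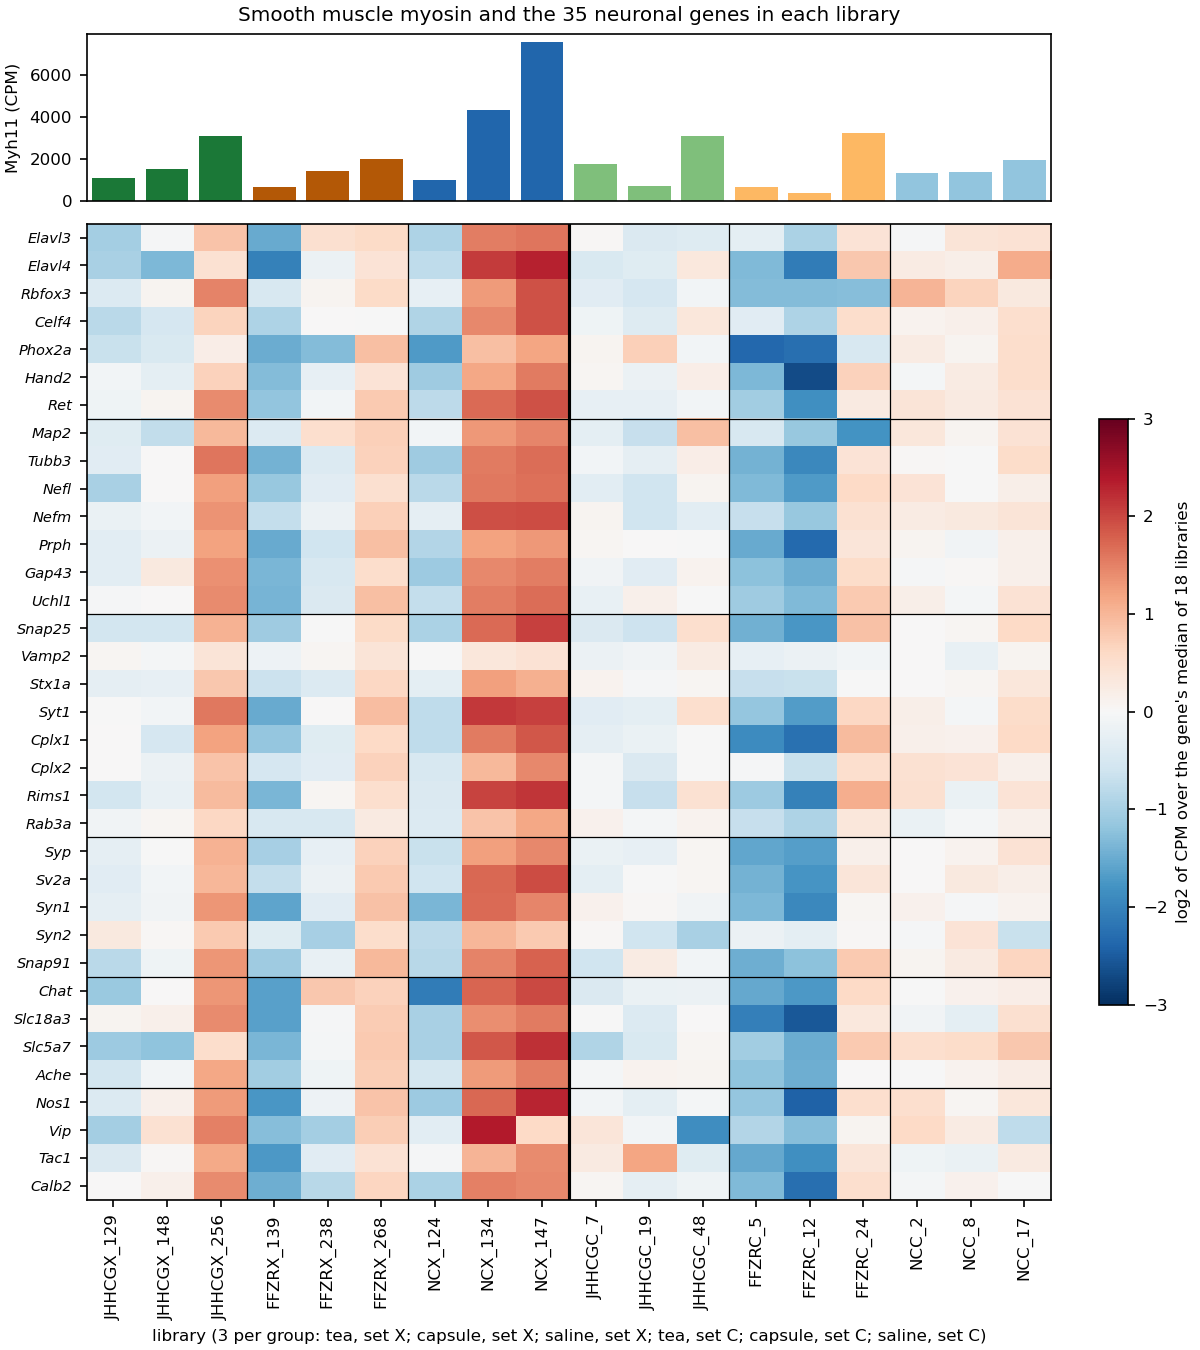
Myh11 in CPM (bars, top, from 0) and, below, the log2 of each of the 35 neuronal genes' CPM over that gene's median of 18 libraries (colour), one column per library in 6 groups of 3. Columns of one colour run through nearly all rows: NCX_147 and NCX_134 are red and FFZRC_12, FFZRC_5 and FFZRX_139 blue, and the same libraries are high or low in Myh11, from 7607 CPM in NCX_147 to 399 CPM in FFZRC_12. JHHCGC_48 differs, with 3113 CPM of Myh11 but a median member only 0.01 log2 units up.

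Per length, the levels of the members spanned a wide range. The median FPKM over 18 libraries was highest for Calb2 (calretinin, a calcium buffer of many enteric neurons) at 26.9, Vamp2 at 23.0, Uchl1 (a neuronal ubiquitin hydrolase) at 21.9, Vip at 20.98 and Prph (the peripheral neurofilament peripherin) at 20.1. It was lowest for Rbfox3 (the neuronal splicing factor NeuN) at 0.193 and Chat at 0.398. In bulk tissue, fewer neurons and less RNA per neuron cannot be told apart.

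Myh11, the myosin heavy chain of smooth muscle, was used as the muscle measure. It had 1112, 1525 and 3102 CPM in tea X, 665, 1426 and 1987 CPM in capsule X, and 1028, 4369 and 7607 CPM in saline X. It had 1754, 716 and 3113 CPM in tea C, 659, 399 and 3263 CPM in capsule C, and 1331, 1395 and 1979 CPM in saline C. Groups overlapped in both sets. The range was widest in saline X in CPM and in capsule C as a ratio of highest to lowest.

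A fit over all 18 libraries gave each gene's slope on log2 Myh11 within the 6 groups, where a slope of 1 means that a gene doubles when Myh11 doubles. All 35 members had positive slopes, against 45.6% of all genes, and 32 passed an adjusted p under 0.05 (edgeR quasi-likelihood test, Benjamini-Hochberg over 22379 genes), with a median slope of 0.74. Over all genes 34.7% were called, 16.6% with a positive slope, and the median slope was -0.04. Map2, Vip and Syn2 did not pass (adjusted p = 0.0543, 0.147 and 0.163 by edgeR). The largest slopes were those of Elavl4 (a neuronal RNA-binding protein of the Hu family) at 0.96 ± 0.13, Chat (the acetylcholine-making enzyme) at 0.96 ± 0.20, Nos1 (neuronal nitric oxide synthase) at 0.93 ± 0.13, Rims1 (an active zone scaffold) at 0.93 ± 0.08 and Snap25 (a SNARE of the plasma membrane) at 0.92 ± 0.08, each ± SE. The smallest were those of Vamp2 (the vesicle SNARE) at 0.14 ± 0.05 (-0.035 by limma on FPKM, without TMM scaling), Syn2 (a synapsin) at 0.26 ± 0.14, Stx1a (a plasma membrane SNARE) at 0.39 ± 0.10, Rab3a (a vesicle GTPase) at 0.42 ± 0.06 and Map2 (a dendritic microtubule protein) at 0.42 ± 0.16.

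Snap25 shows the common pattern: it had 18.96, 19.1 and 57.6 CPM in tea X, 13.2, 27.6 and 41.6 CPM in capsule X, and 14.4, 90.2 and 115 CPM in saline X. In set C it had 20.5, 18.1 and 39.8 CPM with tea, 10.2, 8.27 and 51.6 CPM with capsule, and 28.2, 29.1 and 42.1 CPM with saline. In each of the 6 groups the library with the most Myh11 also had the most Snap25, and all groups of a set overlapped. Nos1, at 6.95 CPM in FFZRC_12 and 180 CPM in NCX_147, spanned 25.9-fold over the libraries. Vamp2 spanned 1.58-fold, at 78.4 CPM in FFZRC_5 and 123.8 CPM in NCX_147. The 3 SNARE genes that fuse a vesicle thus had slopes of 0.92 for Snap25, 0.39 for Stx1a and 0.14 for Vamp2, a difference that was not tested.

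**Figure D2:**
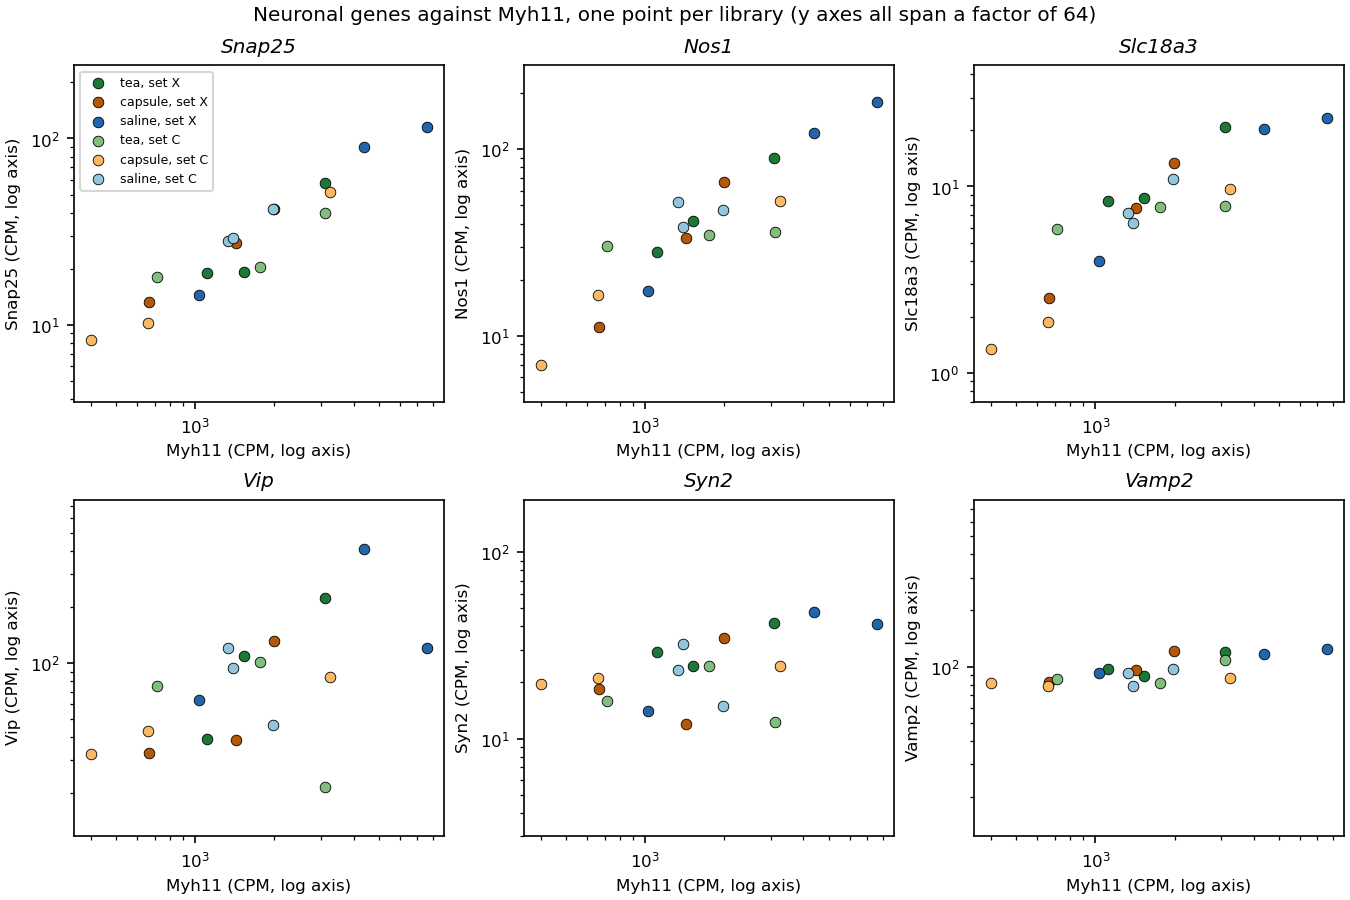
CPM of 6 neuronal genes (y, log axes that all span a factor of 64) against Myh11 CPM (x, log axis), one point per library coloured by group. Snap25, Nos1 and Slc18a3 climb with Myh11, with slopes of 0.92, 0.93 and 0.89, while Vip and Syn2 scatter and Vamp2 is nearly flat, with slopes of 0.50, 0.26 and 0.14.

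Members of every role group rose with Myh11. All 7 RNA-binding and identity factors passed with a median slope of 0.66, as did all 8 genes of vesicle fusion (median 0.67) and all 4 cholinergic genes (median 0.87). In the cytoskeleton and growth group 6 of 7 passed, in the vesicle membrane and tethering group 4 of 5, and in the inhibitory and peptide group 3 of 4. Outside the members, 49 of 66 further neuronal genes that could be tested rose with Myh11 and 1 fell, with a median slope of 0.71. Of the markers of other cell types, 11 of 11 smooth muscle genes rose (median 0.81), 7 of 10 enteric glia genes rose and 1 fell, and 3 of 5 genes of interstitial cells of Cajal rose. Among epithelial genes 3 rose and 2 fell of 10, and among enteroendocrine genes 1 rose and 9 fell of 12. Cartilage genes fell for 5 of 5 (median -3.34) and lung genes for 3 of 8 (median -1.46). Of 12 skeletal muscle genes 1 rose and 5 fell, and 0 of 6 adipocyte genes passed. NCX_124 and FFZRX_139, which carried cartilage transcripts, had the least Myh11 of their groups. The part of these tissues in the slopes was not tested. The 5 libraries with the most Myh11 were all among the 6 with the highest mitochondrial share, whose part in the slopes was not tested.

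**Figure D3:**
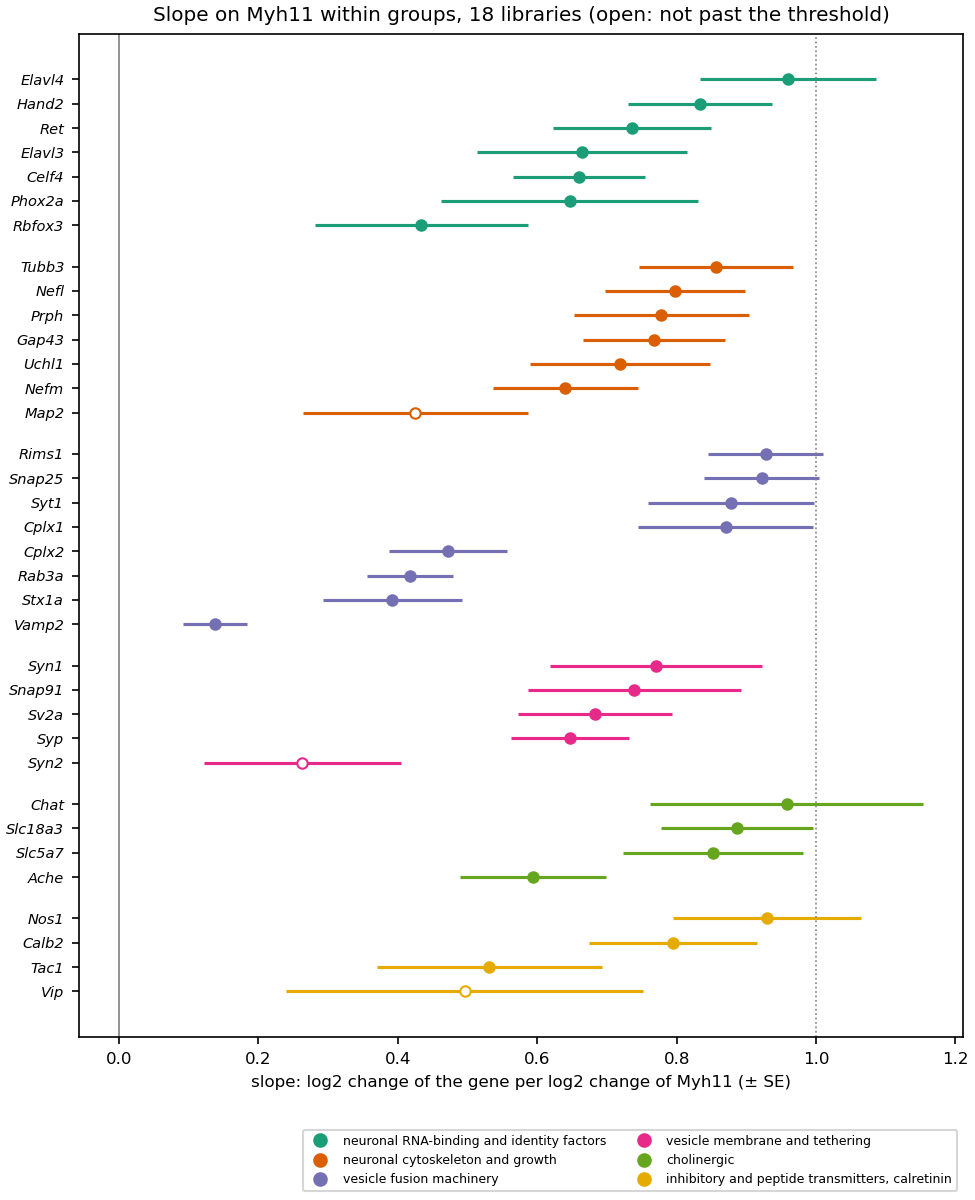
Slope of each of the 35 genes on log2 Myh11 within groups (x, log2 per log2, points with SE bars, 18 libraries), sorted within 6 role groups, with dotted lines at 1 and solid at 0. Filled points passed the threshold. Vesicle fusion genes spread over the whole range, from Vamp2 at 0.14 to Rims1 at 0.93.

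The calls of slopes were lost without the 6 libraries that stand apart, which leaves 12 libraries. All 35 slopes were then positive with a median of 0.68, but this left NCX_124 as the only saline X library. Within set X alone 32 members passed with a median slope of 0.996 (9.81% of all genes were called with a positive slope), and within set C alone 19 passed with a median of 0.47 (6.49% of all genes). In a fit added after seeing the data that let the slope differ between sets, the difference was positive for 35 of 35 members with a median of 0.50, against 0.02 over all genes. By edgeR 0 of the 35 differences passed (0.00447% of all genes did). An unadjusted p under 0.05 was reached by 22 members and by 1853 of all 22379 genes. Celf4 (a neuronal RNA-binding protein) led at 0.52 (adjusted p = 0.354).

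Set X was set against set C over the 3 treatments. All 35 members had a positive log2 difference, as had 49.3% of all genes, with a median of 0.61 against -0.01 over all genes. None passed by edgeR (0.0402% of all genes were called), DESeq2 or limma, with 5 members and 1600 of all 22380 genes at an unadjusted p under 0.05. Rbfox3 led at 0.96 ± 0.32 (SE; adjusted p = 0.604), followed by Nefm (a neurofilament subunit) at 0.78 ± 0.33 and Map2 at 0.72 ± 0.31. Smooth muscle markers stood in the same direction for 12 of 12 genes with a median of 0.55. With log2 Myh11 as a covariate the members' median was 0.08, with 26 of 35 positive.

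Tea was compared with saline in each set and over both. Averaged over both sets, all 35 members had a negative log2 change with tea, with a median of -0.52 against -0.04 over all genes, of which 46.8% were positive. None passed by edgeR, where 0.505% of all genes were called, or by DESeq2 or limma. Of the members 2 had an unadjusted p under 0.05, as had 3590 of all 22380 genes. Slc5a7, the transporter that takes choline back into cholinergic terminals, led this comparison. It had 2.81, 2.62 and 8.69 CPM in tea X, against 3.09, 22.0 and 27.4 CPM in saline X. It had 3.21, 4.36 and 6.32 CPM in tea C, against 8.59, 8.79 and 10.5 CPM in saline C. All 3 tea C libraries lay below all 3 saline C libraries, while NCX_124 lay within the tea X range. The averaged change was -1.45 ± 0.54 (SE; adjusted p = 0.201 by edgeR), with Elavl4 next at -1.41 ± 0.59 (adjusted p = 0.251) and Rbfox3 at -0.80 ± 0.39 (adjusted p = 0.327). With log2 Myh11 as a covariate 14 members were positive and the median was -0.08. With the mean of 22 further neuronal genes as a covariate, an alternative chosen after seeing the data, 27 members were positive with a median of 0.22. In that fit 4 passed by edgeR, all higher with tea at a given level of the further neuronal genes (0.648% of all genes were). They were Gap43 at 0.56 ± 0.13, Tubb3 at 0.53 ± 0.13, Prph at 0.58 ± 0.14 and Calb2 at 0.60 ± 0.15, with adjusted p of 0.0404 to 0.0448. Without that covariate these 4 had negative changes.

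Within set X all 35 members had a negative change between tea and saline, with a median of -0.71 against -0.06 over all genes, of which 46.7% were positive. No member passed by edgeR (0% of all genes), DESeq2 or limma, and 1 had an unadjusted p under 0.05, as had 3582 of all 20889 genes. Elavl4 had 4.19, 3.25 and 11.4 CPM in tea X, against 4.86, 35.3 and 40.7 CPM in saline X, and its change was -2.11 ± 0.87 (adjusted p = 0.264 by edgeR). The 2 groups overlapped through NCX_124, and no member separated them in either direction, while 11.4% of all genes had every tea X library below every saline X library. The changes of smooth muscle markers were also negative for 12 of 12 genes, with a median of -1.01. With log2 Myh11 as a covariate, 27 of the 35 members were positive and the median was 0.22. Without the 6 libraries that stand apart the median was 0.41, but this left NCX_124, which carried cartilage transcripts, as the only saline X library.

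Within set C 30 of 35 members had a negative change with tea, with a median of -0.26 against 0.01 over all genes, of which 51.5% were positive. Neither edgeR (0% of all genes) nor DESeq2 or limma called a member, and 1 had an unadjusted p under 0.05, as had 668 of all 20964 genes. Here 8 of 35 members (22.9%) had every tea C library below every saline C library, against 7.67% of all genes. They were Rbfox3, Ret (the receptor of the neurotrophic factor GDNF), Nefm, Cplx1 and Cplx2 (complexins, clamps of the SNARE complex), Chat, Slc5a7 and Nos1. Smooth muscle did not share this direction, with 11 of 12 markers positive and a median of 0.25, and with Myh11 as a covariate the members' median was -0.27. Skeletal muscle markers were negative for 12 of 12 genes with a median of -3.37, and their part was not tested. Of the further neuronal genes, 53 of 65 were negative with a median of -0.27. The difference of the tea effect, set X minus set C, was negative for 33 of 35 members with a median of -0.45, and positive for 45.7% of all genes. None of these differences passed by edgeR (0% of all genes), DESeq2 or limma, with 0 at an unadjusted p under 0.05 (1346 of all 22380 genes). Celf4 led these differences at -1.001 ± 0.81 (adjusted p = 0.949).

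The capsule was compared with saline in the same way, against the same saline libraries. Averaged over both sets, all 35 members had a negative change with the capsule, with a median of -0.96 against -0.0020 over all genes, of which 49.8% were positive. An unadjusted p under 0.05 was found for 12 members and for 2103 of all 22380 genes. No member passed by edgeR (0.00447% of all genes) or limma. By DESeq2 1 member, Rbfox3, was called, and was lower, where 0.666% of all genes were called in either direction. Rbfox3 had 0.83, 1.23 and 1.74 CPM in capsule X, against 0.986, 2.80 and 4.36 CPM in saline X. It had 0.474, 0.470 and 0.479 CPM in capsule C, against 2.37, 1.85 and 1.41 CPM in saline C. In TMM-scaled CPM it was the member whose 3 capsule C libraries lay closest together. These levels rest on counts of 35, 38 and 25, and by FPKM they were 0.0845, 0.0841 and 0.0527. All 3 capsule C libraries lay below the 3 saline C libraries. Its averaged change was -1.54 ± 0.39 (adjusted p = 0.485 by edgeR and 0.0278 by DESeq2), followed by Map2 at -1.02 ± 0.38 and Nefm at -1.03 ± 0.41.

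In set C all 35 members had a negative change between capsule and saline, with a median of -0.62 against 0.05 over all genes, of which 55.2% were positive. An unadjusted p under 0.05 was found for 4 members and for 1205 of all 20964 genes. By edgeR none passed, where 0.11% of all genes were called, or by limma, and Rbfox3 passed by DESeq2 (adjusted p = 6e-06, with 1.94% of all genes called). Its change was -1.96 ± 0.40 (adjusted p = 0.217 by edgeR). Phox2a, a transcription factor of autonomic neurons, had 0.623, 0.668 and 2.28 CPM in capsule C, against 3.78, 3.39 and 4.56 CPM in saline C, a change of -1.70 ± 0.55 (adjusted p = 0.552). Map2 had 9.87, 6.27 and 3.99 CPM in capsule C, against 17.48, 14.7 and 18.8 CPM in saline C, a change of -1.31 ± 0.46 (adjusted p = 0.644). These 3 genes and Stx1a were the 4 members (11.4%) with every capsule C library below every saline C library, against 9.09% of all genes. The cartilage, fat, lung and skeletal muscle markers given above differed between these same libraries, with 12 of 12 skeletal muscle genes negative at a median of -4.64, and their part in the members' changes was not tested.

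This comparison turned on FFZRC_24. It had 3263 CPM of Myh11, against 659 and 399 CPM in the other 2 capsule C libraries, and stood above all 3 saline C libraries for 19 of 35 members. Without it, 14 members passed, all lower, by edgeR (1.08% of all genes passed and were lower), with a median of -1.74. They were Phox2a and Ret among the identity genes, Tubb3 (neuronal tubulin), Nefl, Prph, Gap43 (a growth cone protein) and Uchl1 of the cytoskeleton group, Cplx1, the vesicle proteins Syp, Sv2a and Syn1, the cholinergic genes Slc18a3 and Ache (acetylcholinesterase), and Calb2. Without the 6 libraries that stand apart, 12 members passed, all lower (0.951% of all genes). Both fits left the 2 capsule C libraries with the least Myh11, and the part of muscle content in these calls was not tested. Over all 9 libraries with log2 Myh11 as a covariate, none passed by edgeR, and the median was -0.63, with all 35 members negative. In that fit 12 members had an unadjusted p under 0.05. This was not counted over all genes, so it is not a result about the members.

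In set X all 35 members again had a negative change with the capsule, with a median of -1.17 against 0.01 over all genes, of which 51.1% were positive. The count of members past the threshold was 0 by edgeR (0% of all genes), DESeq2 and limma. Of the members 2 had an unadjusted p under 0.05, as had 2014 of all 20889 genes. Rims1 had 18.9, 51.0 and 69.2 CPM in capsule X, against 36.2, 202 and 217 CPM in saline X, a change of -1.71 ± 0.72 (adjusted p = 0.517). Elavl4 (-1.99 ± 0.87) and Celf4 (-1.47 ± 0.67) followed. NCX_124 lay within the capsule X range for these genes, no member separated the groups, and 5.86% of all genes had every capsule X library lower. Smooth muscle markers had negative changes for 12 of 12 genes with a median of -1.46. With Myh11 as a covariate the members' median was 0.30 with 29 of 35 positive. Without the 6 libraries that stand apart the median was 0.67, again with NCX_124 as the only saline X library. The difference of the capsule effect, set X minus set C, was negative for 31 of 35 members with a median of -0.55, and positive for 47.2% of all genes. None of these differences passed by edgeR (0.0134% of all genes), DESeq2 or limma, with 0 at an unadjusted p under 0.05 (1507 of all 22380 genes).

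**Figure D4:**
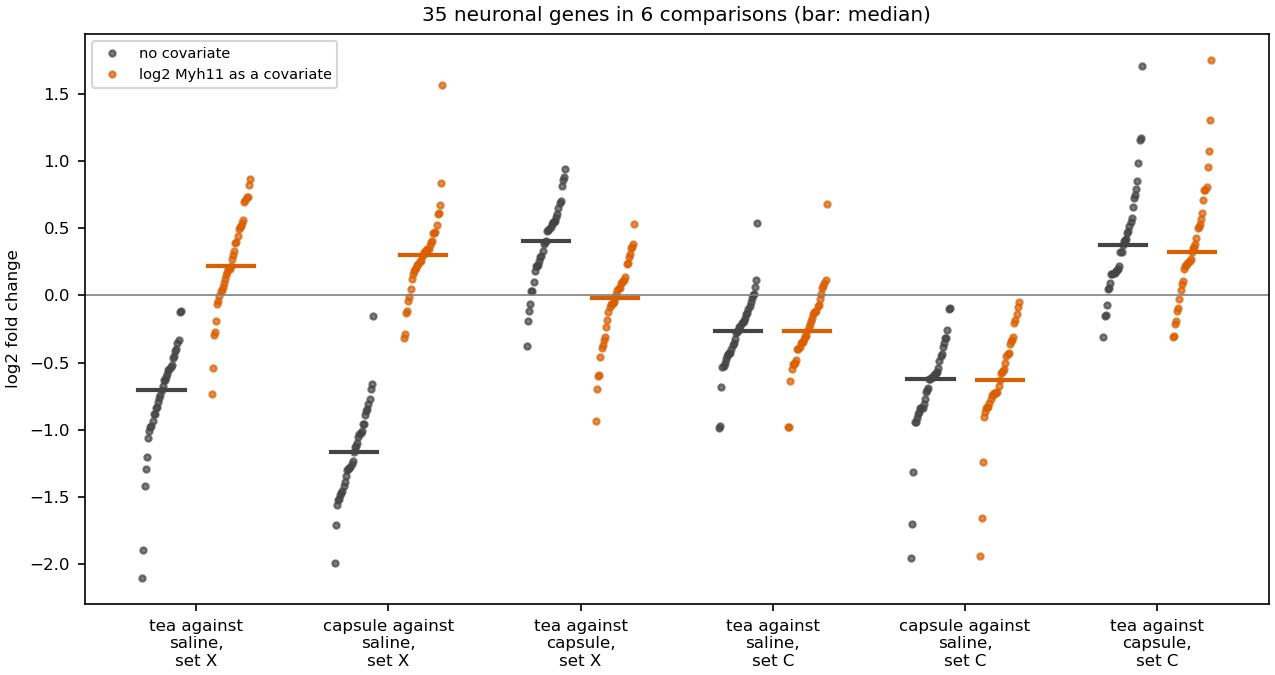
Log2 fold change of each of the 35 genes (y, points in order of size, bars at the median) in 6 comparisons (x), without a covariate (grey) and with log2 Myh11 as a covariate (orange). In set X the median against saline moves across 0, from -0.71 to 0.22 for tea and from -1.17 to 0.30 for capsule, while in set C it stays at about -0.26 for tea and -0.62 for capsule.

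Tea and capsule were also compared with each other. In set C 31 of 35 members had a positive change, tea over capsule, as had 48.2% of all genes, with a median of 0.38, and 2 members (5.71%), Rbfox3 and Phox2a, had every tea library above every capsule library, against 4.67% of all genes. No call was made by edgeR (0.0143% of all genes), DESeq2 or limma, with 3 at an unadjusted p under 0.05 (1094 of all 20964 genes). Phox2a led at 1.71 ± 0.55 (adjusted p = 0.864), with Map2 at 1.17 ± 0.45 and Rbfox3 at 0.98 ± 0.39. In set X 31 of 35 members had a positive change, as had 49.5% of all genes, with a median of 0.41. The same tests called none (0% of all genes by edgeR), and none had an unadjusted p under 0.05 (1235 of all 20889 genes had). Calb2 led at 0.94 ± 0.73 (adjusted p = 0.99995).

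The cholinergic genes form one cycle: Chat makes acetylcholine, Slc18a3 loads it into vesicles, Ache splits it after release and Slc5a7 recovers the choline. Slc18a3 had 8.31, 8.65 and 20.9 CPM in tea X, 2.53, 7.64 and 13.3 CPM in capsule X, and 3.96, 20.4 and 23.2 CPM in saline X. In set C it had 7.76, 5.88 and 7.88 CPM with tea, 1.88, 1.35 and 9.66 CPM with capsule, and 7.24, 6.34 and 11.0 CPM with saline. It overlapped between tea and saline in both sets, whereas Slc5a7 overlapped in set X alone. The count ratio of Slc5a7 to Slc18a3, which needs no scaling between libraries, was 0.34, 0.30 and 0.41 in tea X, 0.92, 0.75 and 0.77 in capsule X, and 0.78, 1.08 and 1.18 in saline X. It was 0.41, 0.74 and 0.80 in tea C, 1.54, 1.59 and 1.08 in capsule C, and 1.19, 1.39 and 0.96 in saline C. In each set every tea library lay below every capsule and saline library. Between sets the values overlapped, with 0.74 and 0.80 in tea C against 0.75 and 0.77 in capsule X and 0.78 in saline X. This ratio was 1 of 6 computed and was picked after its values were seen, so it is given with no test. The part of Myh11 in it was not tested.

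**Figure D5:**
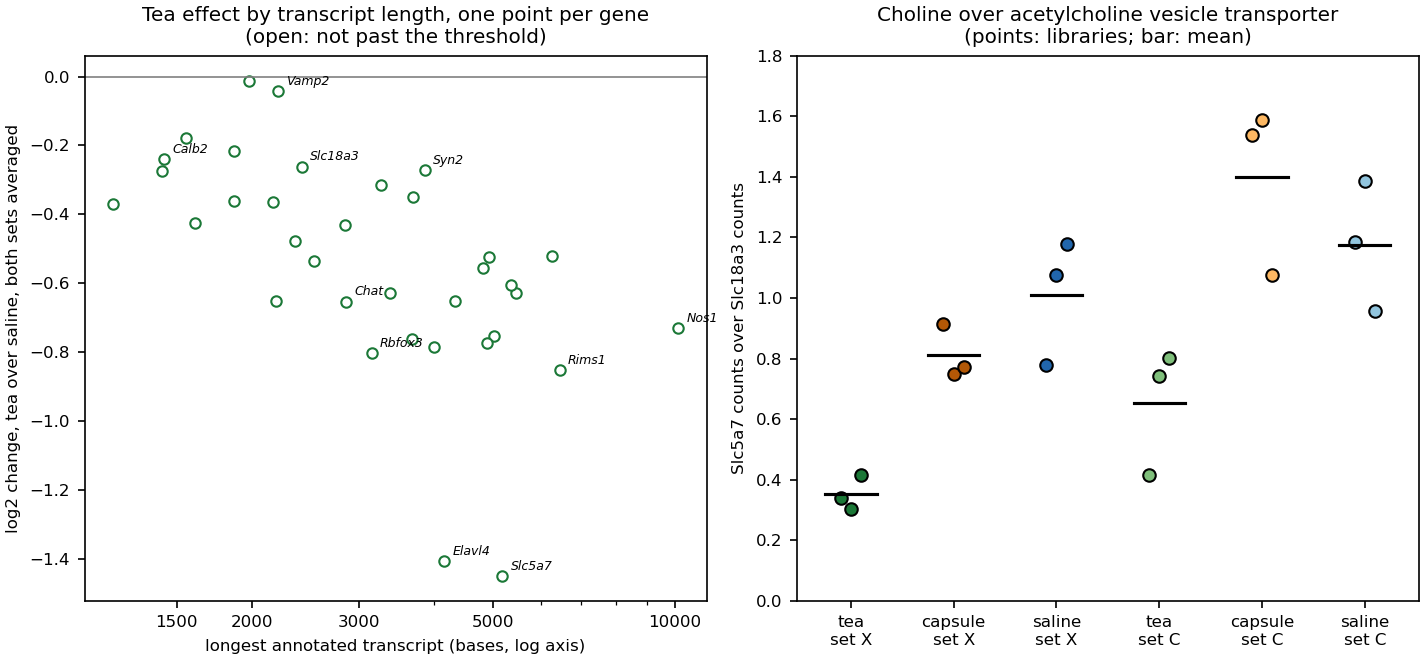
Left, the log2 change with tea averaged over both sets (y) against the longest annotated transcript in bases (x, log axis), one point per gene, none past the threshold: Slc5a7 and Elavl4 are lowest, at -1.45 and -1.41. Right, the count ratio of Slc5a7 to Slc18a3 (y) by group (x), points for libraries and bars for means: tea libraries are at 0.30 to 0.41 in set X and 0.41 to 0.80 in set C, below all others of their set.

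The averaged tea change also varied with transcript length among the members. Its Spearman correlation with the longest annotated transcript was -0.665 across the 35 genes and -0.211 across all 22341 genes with a length, a description across genes that share libraries and are not independent. The figure with GC content was 0.329 for the members and 0.279 for all genes. With the further neuronal genes as a covariate, the correlation with length was -0.567 for the members and -0.109 for all genes. The members called in that fit, Gap43, Calb2, Prph and Tubb3, have transcripts of 1420, 1431, 1863 and 1868 bases. The part of length in those calls was not tested. Slc18a3 has a transcript of 2413 bases and Slc5a7 one of 5180 bases, so length moves with their ratio too, and its part was not tested. This was looked at after the values were seen.

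Among the inhibitory and peptide genes, Vip scattered most around the Myh11 slope, with an SD of 1.04 log2 units within groups after removing it, against 0.53 for Nos1 and 0.48 for Calb2. Vip had 39.3, 109 and 225 CPM in tea X, 32.8, 38.8 and 131 CPM in capsule X, and 63.4, 412 and 120 CPM in saline X. It had 102, 74.9 and 21.6 CPM in tea C, 43.2, 32.4 and 83.8 CPM in capsule C, and 120, 94.6 and 46.8 CPM in saline C. JHHCGC_48, with 3113 CPM of Myh11, had the lowest level of Vip of all libraries, 21.6 CPM. Tac1, the gene of the excitatory tachykinins, had 44.1, 82.3 and 28.1 CPM in tea C, 12.5, 10.2 and 47.1 CPM in capsule C, and 33.3, 31.6 and 44.0 CPM in saline C. Its highest set C library, JHHCGC_19, was among the low ones in Myh11 at 716 CPM.

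Reads of 13 members cannot be fully assigned, because their exons share bases with another gene and no source used here says whether reads were counted by strand. Nefl and Nefm share 1108 exonic bases on opposite strands, Syp shares 875 with Gm14703, and Hand2 (a transcription factor of enteric neurons) 461 with Hand2os1. Elavl3 shares exonic bases with Gm49318 on its own strand, and the Slc18a3 gene lies within Chat.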

How the data were processed

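Colon RNA of 18 libraries was sequenced after oligo(dT) selection, per the labels' protocols. The submitters' processing notes name cutadapt 1.9, HISAT2 2.0.4, StringTie 1.3.4d and edgeR, in roles that are not given, and a human build. Gene identifiers matched GENCODE mouse release 21 (33866 of 33977, 91.16% of them at the same coordinates), so positions are on GRCm38. The authors deposited a whole-number read count and an FPKM value per gene and library.

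From the counts, TMM scaling, a low-count filter (filterByExpr, minimum count 10) and quasi-likelihood tests were run in edgeR 4.0.16 (R 4.3.3), adjusted over all genes (Benjamini-Hochberg, threshold 0.05). Each set was fitted alone (9 libraries, 20964 genes in C and 20889 in X), and all 18 together (22380 genes) for averaged effects, their differences and X against C. All 35 members passed the filter in every fit. A standard error is the absolute log2 change over the square root of the test's F. Slopes on log2 Myh11 were fitted with a term for each of the 6 groups. Replicates differed beyond counting noise. The scripts were tested on simulated counts.

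Members and gene lists were chosen with earlier results of these data known. Changes are printed for the 3 members with the smallest p in a comparison, and the 5 largest and 5 smallest slopes, all others named having been chosen after their values were seen. Alternatives were other scaling, no filter, DESeq2 1.42.0, limma 3.58.1 on log2(FPKM + 0.1) and log2(FPKM + 1), covariates, and left-out libraries. In GRCm38.p6 RefSeq promoters, 250 bases were searched.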

Additional observations from a re-analysis of the deposited data

How the results depend on the processing

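No paired analysis was possible because the library numbers in the labels are not shared between groups. Of the member values recomputed under each alternative, 945 kept direction and side of the threshold, 24 lost and 11 gained a call and 15 changed sign. Capsule against saline in set C called 0 members in the fit as designed, 1 by DESeq2, 12 without the 6 libraries that stand apart, and 0 to 14 when 1 library was left out. The averaged capsule effect called 1 by DESeq2. The averaged tea effect called 4 with further neuronal genes as a covariate. The Myh11 slope called 32, but 19 in set C alone, 0 without the 6 libraries and 28 to 32 leaving out 1 library. Leaving out the 6 libraries left NCX_124 as the only saline X library. The sign then turned for capsule against saline in set X (Elavl4 0.49, Celf4 0.67, Rims1 0.36), tea against saline in set X (Rims1 0.062), the tea difference X minus C (Elavl4 0.22, Celf4 0.62) and the capsule difference X minus C (Celf4 1.36, Rims1 1.99). The capsule difference of Rims1 was 0.042 with Myh11 as a covariate, and -1.84 to 0.049 when 1 library was left out (0.049 without FFZRC replicate 24). Celf4 in capsule against saline in set X was 0.20 with the Myh11 covariate and 0.088 with the neuronal one, which also put Nefm at 0.041 for the averaged capsule effect. The slope of Vamp2 was -0.035 and -0.033 by limma on FPKM, which has no TMM scaling and put the median slope of all genes at -0.16 and -0.07. The cause of these changes was not tested. With 3 libraries a group and this spread, a member needed a large change to pass, so a change below the threshold is not shown to be absent.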
